A study of Mus musculus with 9 samples.

Results

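The comparison described here covers the first 2 weeks after birth in mouse heart muscle cells: postnatal day 14 (P14) against postnatal day 1 (P1). Its libraries were taken by age label alone, 3 at P14 and 3 at P1 of the 9 in the series, and all genes of the deposited count table entered, of which 15817 of 15824 passed a filter on low counts. All libraries are of CD-1 (ICR) mice, an outbred stock, and the labels give no genotype or transgene and no treatment that separates the ages. Each library is 1 pool of hearts, 12 per pool at P1 and 6 to 7 at P14, and the RNA was depleted of ribosomal RNA. The cell type label reads isolated cardiomyocytes. The protocols describe whole cells from neonatal ventricles or perfused adult hearts as well as nuclei sorted for Pcm1, a centriolar satellite protein that marks cardiomyocyte nuclei, and they mention surgery before cell isolation. The labels do not tie either route or the surgery to a library. Pcm1 itself was at 242, 252 and 250.3 CPM in P1 replicates 1 to 3 and at 147, 128 and 134 CPM in P14 replicates 1 to 3. The 3 libraries of the remaining age, P56, shared the fit so that the spread between replicates was estimated over all ages. No change in level against them is given below. A second fit, described below, adds a marker score. Its slope on that score is estimated over all 9 libraries, so values from it depend partly on P56 levels. The labels do not state how reads were assigned or whether strand was used, so reads of overlapping genes (Tap1 with Psmb9, Col4a1 with Col4a2, and other annotated genes within Kcnq1, Kcnd3 and Kcnd2) cannot be told apart.

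After birth the cardiomyocytes of a mouse stop dividing, many become binucleate, and further growth is by enlargement. The same weeks bring new membrane systems for calcium release, denser mitochondria and a change from carbohydrate towards fat as fuel. Cholesterol and fatty acids for new membrane are made by enzymes whose genes are switched by the SREBP transcription factors, which sense sterol in the endoplasmic reticulum. Peptide presentation on class I histocompatibility proteins is induced by interferon in nearly every cell type.

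Library totals were 49190887 to 58538025 counts at P1 and 36619799 to 38878181 at P14, so weakly expressed genes carry more counting error at P14. Levels below are in CPM, the counts of a gene per 1000000 counts of the library after TMM scaling, listed for replicates 1, 2 and 3. Markers of other heart cells moved with age. A score over 66 markers of fibroblasts, endothelium, leukocytes, smooth muscle with pericytes, and epicardium (their mean log2 CPM) was 1.47, 1.13 and 1.59 at P1 and 3.54, 3.01 and 2.27 at P14. Of these markers 51 rose and 5 fell at P14, with a median log2 change of 1.99, and 16 rose and 15 fell with the score itself in the fit. All 18 endothelial markers, 12 of 14 leukocyte markers and 9 of 16 fibroblast markers rose, the last being 5 without P1 replicate 2. Summed fibroblast markers were 296, 209 and 375.5 CPM at P1 and 907, 616 and 248 CPM at P14, so the ages overlapped. In the smooth muscle and pericyte list, part of which is not in the score, 7 of 13 genes rose and 4 fell. The genes that define cardiomyocytes were present at both ages, with 5 of 16 rising and 1 falling, and without P14 replicate 1 there were 8 rises and 2 falls, and score-adjusted 9 rises and 1 fall. Ttn, the giant sarcomere spring protein, stood at 34460, 33740 and 27380 CPM at P1 and at 35950, 44280 and 52940 CPM at P14, a difference that did not pass the threshold (log2 change 0.48), although it passed without P14 replicate 1, at 0.61, and score-adjusted, at 1.23. The P14 library with the highest marker score thus had the lowest Ttn level of its age. In bulk RNA, more cells of a type and more RNA per cell cannot be told apart. Gene groups below are therefore also given from a second fit with the marker score as a covariate, and values from it are called score-adjusted. The score does not overlap between the ages, so it shares information with age. What part other cells had in a change, beyond these values, was not tested.

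At an adjusted p under 0.05 (edgeR's quasi-likelihood test, Benjamini-Hochberg over all genes tested), 4493 genes rose, 28.4% of those tested, and 4350 fell, 27.5%. A log2 change of at least 1 was reached by 2111 rises (13.3%) and 1483 falls (9.38%). With the score in the fit 3781 genes rose (23.9%) and 3834 fell (24.2%). Of the 8843 genes called in either direction (55.9%), 6002 kept their call and direction and 49 were called the other way. The median log2 change over all genes was 0.00, and −0.04 score-adjusted. The 3 P14 libraries lay wholly above the 3 P1 libraries for 4907 genes (31.0%) and wholly below them for 5199 (32.9%). Counts of members below are set against these shares. The table used here holds no gene whose mean over the 9 libraries is below 10.0 counts, so group sizes are of the members in it, and of the genes tested 390 averaged under 10 counts at P1.

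**Figure D1:**
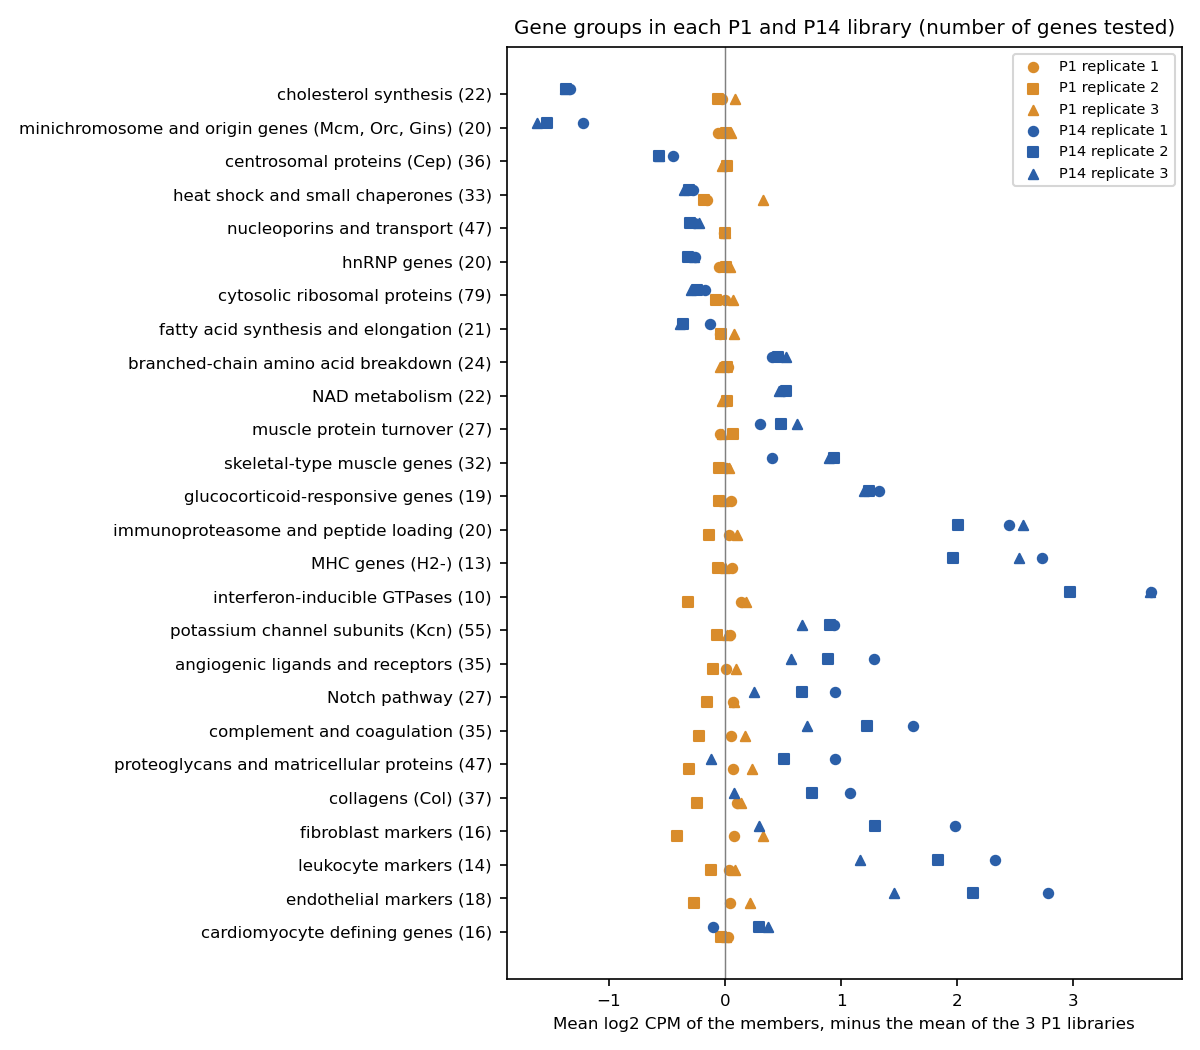
Mean log2 CPM of the members of each gene group in each P1 (orange) and P14 (blue) library, relative to the mean of the 3 P1 libraries, with the number of genes tested in brackets and a marker shape per replicate. Cholesterol synthesis lies below all P1 libraries in the 3 P14 libraries with little spread, whereas the matrix and Notch groups and the markers of other cells are, among the P14 libraries, highest in replicate 1 and lowest in replicate 3.

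Genes with the largest changes came from many functions. Among the 25 largest rises of genes with at least 10 CPM at P14, several encode receptors, channels and transporters of the cell surface. Kcnd3, a pore subunit of the transient outward potassium current, was at 11.4, 11.8 and 12.7 CPM at P1 and at 231, 317 and 396 CPM at P14, a log2 change of 4.72 ± 0.20 (SE, adjusted p = 1.4e-07). Adra1a, the alpha-1A adrenergic receptor, went from 2.50, 2.65 and 2.47 CPM to 42.4, 58.2 and 64.1 CPM. Slc38a3, a glutamine transporter, went from 1.63, 1.84 and 1.80 CPM to 19.8, 38.4 and 54.6 CPM. No P1 library reached a P14 library for these 3 genes, and each was lowest at P14 in replicate 1, the library with the highest marker score.

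Ribosomal, signalling and metabolic genes joined them. Rpl3l, a muscle-restricted relative of ribosomal protein L3, rose from 1.47, 1.46 and 1.06 CPM to 21.5, 36.0 and 45.2 CPM. Bdnf, a neurotrophin, had 0.537, 0.455 and 0.486 CPM at P1 and 10.5, 10.2 and 10.5 CPM at P14, with almost no spread within either age. The microtubule-binding protein gene Mapt rose by 4.45 on the log2 scale and the chemokine scavenger receptor gene Ackr3 by 4.22. Xdh, xanthine dehydrogenase, was at 29.1, 11.0 and 8.47 CPM at P14, highest where the markers were highest, and its log2 change of 5.23 was 3.20 score-adjusted. The collagen gene Col5a3 went from 4.16 to 1.34 in the same way.

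The largest falls included RNA-binding, adhesion, channel and signalling genes. Igf2bp3, which binds and stabilises growth-related mRNAs, went from 83.7, 88.4 and 85.1 CPM to 4.68, 4.84 and 2.81 CPM. Ncam1, the neural cell adhesion molecule, went from 565, 561 and 554 CPM to 54.5, 55.4 and 52.6 CPM (log2 change −3.37 ± 0.12). Cacna1h, a T-type calcium channel pore, went from 52.7, 50.8 and 47.1 CPM to 3.40, 3.30 and 2.68 CPM. The ages lay far apart for all 3 genes, and the libraries within an age were close together. Bmp7, a bone morphogenetic protein, fell by 3.57 and Hey2, a ventricular repressor, by 3.43. Score-adjusted changes were −5.02 for Igf2bp3, −3.21 for Ncam1, −4.27 for Cacna1h, −3.06 for Bmp7 and −3.91 for Hey2, so none of these falls was lost.

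Genes of cholesterol synthesis and control fell nearly as a block. Of 22 members tested, 17 fell and 1 rose, with a median log2 change of −1.27, and the score-adjusted median was −1.38 with 16 falling. Squalene epoxidase, Sqle, which puts the first oxygen into the sterol skeleton, was at 7.49, 7.71 and 8.81 CPM at P1 and at 0.511, 0.838 and 0.607 CPM at P14. Its log2 change of −3.62 ± 0.20 was the largest of the group (adjusted p = 7.2e-07). Idi1, an isomerase of the isoprene units from which sterols are built, went from 2.66, 2.67 and 2.85 CPM to 0.511, 0.270 and 0.276 CPM. No P14 library reached a P1 library for either gene.

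The regulators of the pathway did not move together. Srebf2, which encodes the sterol-responsive transcription factor SREBP2, went from 90.4, 92.3 and 89.1 CPM to 30.2, 30.8 and 31.7 CPM (log2 change −1.55 ± 0.07). Insig1, which holds SREBP proteins back when sterol is plentiful, fell by 1.61. Scap, the escort that carries SREBP proteins to the Golgi, rose from 18.9, 19.8 and 18.8 CPM to 23.4, 24.1 and 27.1 CPM, a log2 change of 0.38 ± 0.08, which was 0.11 and not called with offsets for GC content. Hmgcs1, an enzyme at the entry of the pathway, fell by 0.76. Mvk, mevalonate kinase, had 4.41, 4.19 and 3.94 CPM at P1 and 3.35, 4.08 and 3.97 CPM at P14, and the ages overlapped. Mvd and Tm7sf2 overlapped as well, and Ebp, at 2.31, 1.48 and 2.09 CPM against 1.28, 1.32 and 1.21 CPM, did not overlap but missed the threshold (adjusted p = 0.064) in the fit with age only. Ebp passed without P1 replicate 2 and with the score (−1.33), and Tm7sf2 passed with the score (0.81).

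A search of the promoters of these genes is shown for comparison with the levels. The table of RefSeq promoters (GRCm38.p6) held 17 of the members, and the 250 bases before the start site were searched on both strands. TCACNCCAC, the core letters of a sterol response element, occurred in 1 of the 17, against 1.05% of all 32851 promoters. Among the 10979 genes tested with a promoter it occurred in 1.28%. A gene was counted as a match if any of its promoters matched, whereas the share over all promoters is per promoter. CCAAT, the letters of the box bound by NF-Y, occurred in 16 of the 17, against 33.8% of all promoters and 39.7% of genes tested with a promoter. The letters were not particular to this group. They were in 10 of 10 H2 histocompatibility genes and 11 of 16 peptide loading genes, lists described below that share members and mostly rose. Of the interferon-inducible GTPases, which also rose, 2 of 7 held them. The stretch of Hmgcs1 that holds the sterol match is printed 5′ to 3′ with the matching letters in capitals (chr13:119690143-119690242, plus strand). A match is a description of the letters and not a site of binding.
Hmgcs1: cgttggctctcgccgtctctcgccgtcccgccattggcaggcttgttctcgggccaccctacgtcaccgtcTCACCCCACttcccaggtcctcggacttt

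**Figure D2:**
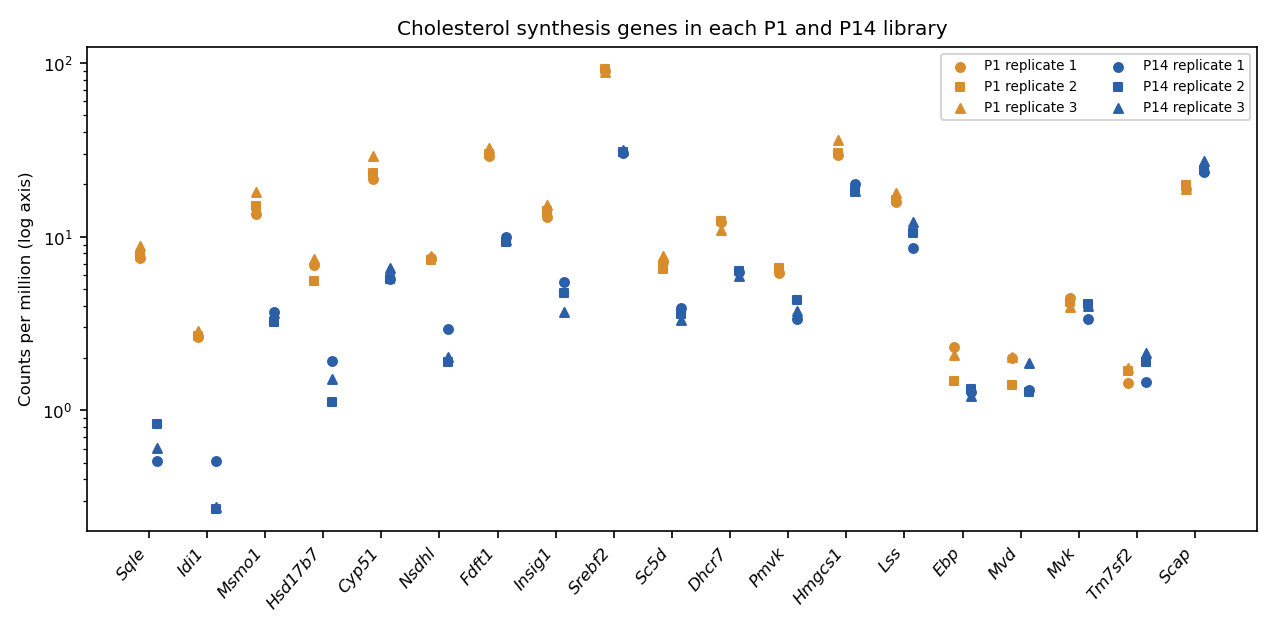
CPM (log axis) of 19 genes of cholesterol synthesis and control in each P1 (orange) and P14 (blue) library. The ages overlap for Mvd, Mvk and Tm7sf2 only, and Scap is the 1 gene whose P14 libraries all lie above the P1 libraries.

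In fatty acid synthesis and elongation more genes fell than rose. Of 21 members, 10 fell (47.6%) and 5 rose (23.8%), against 27.5% and 28.4% of all genes. The median was −0.36 (−0.37 score-adjusted), or −0.22 without P14 replicate 3. Score-adjusted, 10 fell and 2 rose. Acaca, the cytosolic acetyl-CoA carboxylase that commits carbon to synthesis, went from 71.1, 75.2 and 70.7 CPM to 27.9, 25.6 and 23.6 CPM. Fasn, fatty acid synthase, went from 31.2, 28.8 and 34.3 CPM to 13.8, 10.5 and 11.4 CPM, and the elongase gene Elovl6 and the desaturase gene Scd2 fell by 2.33 and 1.58. In the other direction, Acacb, the mitochondrial carboxylase whose product restrains fat oxidation, rose from 411, 415 and 374 CPM to 491, 622 and 792 CPM. Mlxipl, the carbohydrate-sensing factor ChREBP, rose by 2.14. Srebf1 did not pass the threshold (30.0, 29.7 and 30.9 CPM against 26.2, 31.0 and 35.5 CPM). The acyl-CoA synthetase genes Acsl3 and Acsl4 fell by 2.25 and 1.34, while Acsl1, the main form of heart, rose by 0.48. In phospholipid and cardiolipin synthesis 13 of 28 genes rose and 3 fell (12 rising and 3 falling score-adjusted), among them Lpin1, a phosphatidate phosphatase, with a rise of 1.34. Without P1 replicate 3 the number of rises there was 8.

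Genes of the nuclear pore and of RNA handling were lower at P14, by small amounts and in many members. Of 47 nucleoporin and nuclear transport genes 27 fell and 5 rose, with a median of −0.27 (−0.32 score-adjusted). Nup210, a membrane nucleoporin, went from 40.7, 40.8 and 40.0 CPM to 19.1, 20.9 and 20.6 CPM. Xpo1, the main nuclear export receptor, went from 125, 110.5 and 118 CPM to 75.5, 63.5 and 61.5 CPM. The ages did not overlap for either gene. The importins went both ways: Kpnb1, importin beta, fell by 0.49, and Kpna2 and Ipo13 rose by 0.84 and 0.96.

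Of the hnRNP genes, which bind nascent transcripts, 12 of 20 fell and 1 rose (2 rising and 10 falling score-adjusted). Hnrnpk went from 74.6, 76.6 and 82.3 CPM to 49.4, 46.8 and 49.8 CPM and Hnrnpr from 162, 169 and 168 CPM to 114, 103 and 107 CPM, while Hnrnpl rose by 0.33. Spliceosome protein genes fell in 21 of 49 cases and rose in 3, with a median of −0.22. Among the falls were small proteins of the Sm and Lsm rings, Lsm8 (−0.93) and Snrpd1 (−0.75). With the score in the fit fewer were called, 10 falling and 6 rising, but the median stayed at −0.24. Without P14 replicate 1, 6 rose. Cytosolic ribosomal protein genes fell in 27 of 79 cases, near the share over all genes, but only Rpl3l rose, and the median was −0.28 (−0.44 score-adjusted). Rplp0, a protein of the ribosomal stalk, went from 18.2 ± 1.41 to 10.4 ± 2.43 CPM (mean ± SD, n = 3 each). For mitochondrial ribosomal proteins 14 of 76 fell (18.4%) and 9 rose (11.8%), both below the shares over all genes. Score-adjusted, 9 rose and 11 fell. Ribosomal protein genes have many processed pseudogenes, and the treatment of reads shared with those copies is not stated. The number of falls among cytosolic ribosomal proteins was 16 without P1 replicate 1, 13 without P1 replicate 3 and 16 without P14 replicate 2. Among mitochondrial ones it was 6, 8 and 8, so these counts depend on the libraries kept. Falls over all genes also dropped in these fits, from 4350 to 3695, 3706 and 3630. The cytosolic median was −0.30, −0.23 and −0.25 in them.

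Most centrosome genes fell. Of 36 Cep genes 28 fell and 3 rose, with a median of −0.52 and −0.51 score-adjusted. Cep72, which anchors microtubules at the centrosome, went from 8.96, 8.85 and 9.33 CPM to 2.58, 1.89 and 2.10 CPM. Cep192, a scaffold of the pericentriolar material, went from 40.0 ± 1.69 to 20.1 ± 2.55 CPM, and Cep112 fell by 1.29. Cep85 was the largest exception, with a rise of 0.78. GC content moved with the changes of all genes, and offsets for it brought the median of the Cep genes to −0.37 and that of the nucleoporin list to −0.18.

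Genes of replication origins and the MCM helicase fell in 19 of 20 cases (median −1.41, −1.60 score-adjusted) and centromere genes in 13 of 18 (median −1.14, −1.47 score-adjusted). Nucleotide synthesis went with them only in part, as 16 of 39 purine and pyrimidine genes fell (41.0%) and 12 rose (30.8%). Over all genes 27.5% fell and 28.4% rose. Score-adjusted, 10 purine and pyrimidine genes rose and 16 fell. Rrm1, the large subunit of ribonucleotide reductase, fell by 2.21, and Nt5e, the surface enzyme that makes adenosine from AMP, rose from 33.3 ± 2.46 to 133 ± 20.5 CPM. In the serine, glycine and folate pathway 8 of 23 genes fell (34.8%) and 4 rose (17.4%), with a median of −0.15. Score-adjusted, 5 rose and 9 fell. The falls were led by Ftcd (−3.44) and Psat1 (−2.64).

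Chaperone genes fell in a pattern to which 1 library contributed. Of 33 heat shock and small chaperone genes 16 fell and 7 rose, with a median of −0.47, and −0.38 without P1 replicate 3. Hspa1a, an inducible Hsp70, was at 0.743, 0.341 and 4.47 CPM at P1 and at 0.179, 0.0541 and 0.0828 CPM at P14. Hsph1, an exchange factor for Hsp70, was at 22.6, 21.5 and 48.4 CPM at P1 and at 6.82, 6.33 and 5.43 CPM at P14. P1 replicate 3 was the highest P1 library for both, and for Dnaja1, Hsp90aa1, Hspb1 and Dnajb1. Without that library 11 members fell and 7 rose, Hspa1a went from −4.08 to −2.33, and Dnajb1 was no longer called. Dnajb1 also lost its call without P1 replicate 2, P14 replicate 2 or P14 replicate 3. Score-adjusted, 11 fell. Among the members that rose were small heat shock genes of muscle, Hspb8 (2.13) and Hspb6 (0.85), and the co-chaperone gene Bag3, at 84.0, 91.0 and 114 CPM against 150.3, 183 and 185 CPM. In the endoplasmic reticulum 12 of 30 chaperone and stress genes fell (40%, against 27.5% of all genes) and 9 rose (30%, against 28.4%). Score-adjusted, 7 rose and 14 fell. Pdia4, a disulfide isomerase, fell by 1.32.

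Interferon-inducible GTPases and class I presentation genes rose together. Of 21 GTPase genes listed 10 were tested, and 3 of these averaged under 10 counts at P1, so they passed the minimum of the table through their later levels. A gene that enters in this way has to be higher later, and the counts that follow are a description. The 10 genes rose, with a median log2 change of 3.70 (3.59 score-adjusted), and 9 rose with the score in the fit. These proteins, the Gbp, Irg and Mx families, are made by cells exposed to interferon and act on intracellular pathogens. Iigp1 went from 3.40, 3.81 and 3.98 CPM to 97.0, 99.9 and 209.8 CPM. Irgm1 went from 1.68, 1.12 and 1.66 CPM to 11.0, 8.30 and 17.4 CPM, and Gbp7 from 1.03, 0.569 and 0.901 CPM to 9.53, 6.06 and 8.19 CPM. The ages did not overlap for any of the 10 genes. For 5 of the genes, Iigp1, Irgm1 and Irgm2 among them, the highest P14 library was replicate 3, which had the lowest marker score at that age, and the other 5, all Gbp genes, were highest in replicate 1. Gbp8 was the member that lost its call, going from 1.76 to 0.18 with the score. Tgtp2 was at 0, 0 and 0.0180 CPM at P1 and at 1.48, 0.919 and 4.91 CPM at P14, so its fold has no measured base.

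Promoters of this family share a motif. Its 7 members in the table of RefSeq promoters all held an interferon-stimulated response element in its letters, GAAA, any 2 bases and GAAA again, within 250 bases before a start site on either strand (TTTC, any 2 bases and TTTC when read on the other strand). The same letters were in 2.98% of all promoters and, counted by gene, in 3.02% of genes tested with a promoter. By gene they were in 3 of 16 of the peptide loading list and in 2 of 10 of the H2 genes, lists that share members. For 6 of the GTPase genes the stretches that hold the matches are printed 5′ to 3′ on the gene's strand, with matching letters in capitals. Each stretch was chosen for its match, so the capitals are alike by selection. They are chr3:142620534-142620633 (Gbp2), chr3:142559935-142560034 (Gbp3), chr3:142530213-142530312 (Gbp7), chr11:48871421-48871520 (Irgm1, minus strand), chr11:58214843-58214942 (Irgm2) and chr11:49064253-49064352 (Tgtp2, minus strand), all in GRCm38.p6.
Gbp2: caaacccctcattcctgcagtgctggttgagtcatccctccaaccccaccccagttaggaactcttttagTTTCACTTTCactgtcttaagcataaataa
Gbp3: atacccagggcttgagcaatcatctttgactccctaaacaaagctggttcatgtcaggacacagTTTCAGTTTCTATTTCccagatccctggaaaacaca
Gbp7: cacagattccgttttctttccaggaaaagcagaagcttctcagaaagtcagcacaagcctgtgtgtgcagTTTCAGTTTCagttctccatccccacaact
Irgm1: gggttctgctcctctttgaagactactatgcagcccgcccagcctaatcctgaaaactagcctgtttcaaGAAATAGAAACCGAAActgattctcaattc
Irgm2: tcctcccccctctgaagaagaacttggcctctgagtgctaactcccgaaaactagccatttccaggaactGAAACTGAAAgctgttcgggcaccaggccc
Tgtp2: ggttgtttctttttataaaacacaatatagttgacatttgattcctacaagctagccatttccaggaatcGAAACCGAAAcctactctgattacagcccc
In Gbp3 and Irgm1 overlapping matches run together into 1 block of capitals. The letters are of the reference genome and say nothing of binding in these cells.

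**Figure D3:**
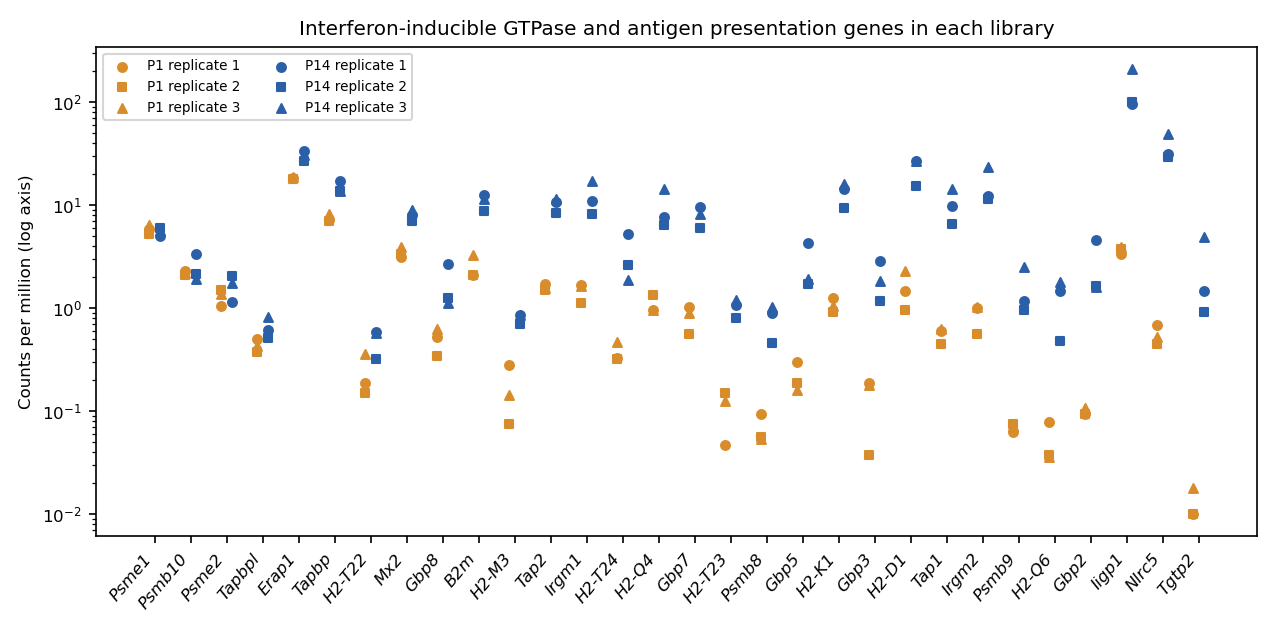
CPM (log axis) of interferon-inducible GTPase genes and of genes of the immunoproteasome, peptide loading and class I presentation in each P1 (orange) and P14 (blue) library. Values of 0 CPM, present for Tgtp2 at P1, are drawn at 0.01, and the P14 libraries lie above the P1 libraries for all 10 GTPase genes drawn.

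Peptide presentation genes rose beside the GTPases. Of 20 genes of the immunoproteasome, peptide loading and class I presentation 16 rose, with a median of 2.90 (2.71 score-adjusted), and 4 of the 20 averaged under 10 counts at P1. Nlrc5, the transactivator of class I genes, went from 0.696, 0.455 and 0.522 CPM to 31.5, 29.7 and 49.4 CPM, a log2 change of 6.03 ± 0.79. Tap1, a chain of the peptide pump of the endoplasmic reticulum, went from 0.601, 0.455 and 0.630 CPM to 9.79, 6.54 and 14.3 CPM. Beta-2 microglobulin, B2m, rose by 2.15, from 2.09, 2.08 and 3.26 CPM to 12.6, 8.81 and 11.5 CPM. The ages did not overlap for any of the 3. Score-adjusted changes were 7.84 for Nlrc5, 5.56 for Tap1 and 2.50 for B2m.

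Among the H2 genes 12 of 13 rose, with a median of 3.21 (3.46 score-adjusted), and 8 rose with the score in the fit. Of these H2 genes 5 averaged under 10 counts at P1. H2-K1, H2-D1 and several other H2 genes are also in the presentation list, so these groups share members and are not separate evidence. H2-K1 was at 1.26, 0.929 and 1.04 CPM at P1 and at 14.5, 9.49 and 15.9 CPM at P14, and H2-D1 was at 1.49, 0.967 and 2.32 CPM and at 27.3, 15.5 and 27.3 CPM. The H2 genes are near-identical copies in places and the Gbp genes are close relatives, so the division of reads within each family is uncertain. The proteasome activator genes Psme1 and Psme2 and the subunit gene Psmb10 did not pass the threshold, and their ages overlapped, although Psme2 passed without P14 replicate 1 (0.55). Leukocyte markers rose beside these genes (12 of 14, median 2.08, 0.46 score-adjusted). These markers are part of the score, so their adjusted median is not independent of it. At P14 the summed leukocyte markers were 74.0, 45.4 and 33.9 CPM in replicates 1 to 3. Over the same libraries the mean log2 CPM was 2.79, 2.09 and 2.78 for the GTPase genes, 2.12, 1.69 and 2.24 for the presentation genes and 0.76, 0.00 and 0.57 for the H2 genes. These were lowest in replicate 2, whereas the leukocyte markers were lowest in replicate 3. What part leukocytes had in these rises was not tested.

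Of genes usually listed for skeletal muscle more rose than fell, and their mean level at P14 was higher in the libraries with the lower marker scores. The list includes a non-muscle myosin and membrane repair genes, so these counts do not measure a skeletal muscle programme. Of 32 such genes tested (55 listed) 15 rose and 3 fell, with a median of 0.64 (0.99 score-adjusted), or 0.32 without P14 replicate 2 and 0.88 without P14 replicate 1. Myh14, a myosin heavy chain of the non-muscle class, went from 6.66, 6.71 and 6.32 CPM to 51.8, 70.1 and 76.8 CPM. Trim72, which helps to patch torn surface membrane, went from 7.40, 6.25 and 6.34 CPM to 39.7, 67.5 and 76.5 CPM. Dysf, dysferlin, another protein of membrane repair, went from 221, 223 and 196 CPM to 481, 687 and 749.5 CPM. All 3 were lowest at P14 in replicate 1, the reverse of the marker score. Mybpc2, the fast form of myosin-binding protein C, rose by 2.92, and Tnnt1 and Myoz1, slow troponin T and a protein of the Z disc, fell by 1.09 and 2.21 (−0.49 and −2.58 score-adjusted, the first not called). Asb genes, substrate adaptors of cullin ubiquitin ligases, rose in 7 of 15 cases (8 score-adjusted). Asb2 went from 298, 276 and 274 CPM to 418, 609 and 701 CPM, and Asb14, Asb15 and Asb18 rose by 1.84, 1.81 and 1.64.

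Genes of protein breakdown in muscle rose in 14 of 27 cases and fell in 2, with a median of 0.39 (0.64 score-adjusted). Fbxo32, atrogin-1, a ubiquitin ligase subunit of wasting muscle, went from 76.4, 93.4 and 75.5 CPM to 157, 201 and 226 CPM. Foxo3, a transcription factor that activates it, went from 179.9, 192 and 176 CPM to 349, 426 and 512 CPM. The ligase genes Trim63 (MuRF1) and Trim54 (MuRF3) rose by 0.64 and 2.79. Their relative Trim55 (MuRF2) went the other way, from 2473, 2455 and 2268 CPM to 832, 913 and 979.5 CPM, so the 3 MuRF genes did not move together. Score-adjusted changes were 1.04 for Trim63, 3.78 for Trim54 and −1.25 for Trim55.

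Amino acid breakdown in mitochondria was another rising group. Of 24 genes for leucine, isoleucine and valine breakdown 17 rose and 1 fell, with a median of 0.44 (0.50 score-adjusted). Klf15, a transcription factor that induces several of them, went from 27.0, 28.4 and 22.6 CPM to 56.3, 75.7 and 88.7 CPM. Bckdha, a subunit of the dehydrogenase that commits the carbon skeletons to oxidation, went from 11.3, 12.9 and 11.8 CPM to 22.7, 31.7 and 31.7 CPM. Dbt, the transacylase core of the same complex, fell from 26.4, 26.6 and 24.7 CPM to 15.3, 16.2 and 19.4 CPM, and Bckdhb did not pass the threshold (log2 change 0.07), so subunits of 1 complex moved apart. Bcat1, the cytosolic transaminase, rose by 2.15 but stood at −0.24 score-adjusted, whereas the mitochondrial form Bcat2 rose by 0.48 and stood at 0.88. In the glutamine, aspartate and proline list 8 of 16 genes rose, but its median went from 0.48 to −0.20 with the score. Prodh, proline dehydrogenase, was at 10.4, 10.4 and 9.31 CPM against 55.4, 84.7 and 97.6 CPM, and the alanine transaminase gene Gpt2 rose by 2.35.

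Genes for NAD rose in 14 of 22 cases and fell in 4, with a median of 0.41 (0.48 score-adjusted). Nampt, the rate-limiting enzyme of NAD salvage, went from 25.2, 25.4 and 25.6 CPM to 60.0, 64.4 and 76.4 CPM. Nmrk2, the muscle kinase of the nicotinamide riboside route, fell from 1.85, 2.46 and 2.07 CPM to 0.588, 0.865 and 0.966 CPM, and its change of −1.40 was −0.43 and no longer called with the score. Cd38, a membrane enzyme that consumes NAD, rose by 2.13, and stood at 0.31 score-adjusted. In coenzyme Q and lipoate synthesis 6 of 18 genes rose (33.3%) and 0 fell, against 28.4% and 27.5% of all genes. Score-adjusted, 9 of the 18 rose and 0 fell, against 23.9% and 24.2% of all genes. Among the rises was Adck3, a kinase-like protein of coenzyme Q assembly, at 123, 137 and 119 CPM against 231, 332 and 362 CPM.

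Genes that respond to glucocorticoid hormone rose in 15 of 19 cases and fell in 1, with a median of 1.40 (0.84 score-adjusted, with 9 rising), and 0.91 without P14 replicate 1. Zbtb16, a zinc finger factor, went from 154, 177 and 129 CPM to 1068, 1585 and 2111 CPM (log2 change 3.37 ± 0.26). Klf9, a Krüppel-like factor, went from 25.5, 25.9 and 21.5 CPM to 121, 116 and 126 CPM. Tsc22d3, the leucine zipper protein GILZ, went from 100.4, 110.5 and 102 CPM to 179, 192 and 200.0 CPM. These 3 genes and Per1 kept their rise with the score in the fit. Sgk1 and Errfi1 did not, going from 2.19 to 0.42 and from 1.29 to −0.19. The receptor gene itself, Nr3c1, rose by 0.26, and Nr3c2, the mineralocorticoid receptor, did not pass the threshold (573, 559 and 529 CPM against 551, 563 and 572 CPM). Hif3a, also on this list, fell by 0.76.

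**Figure D4:**
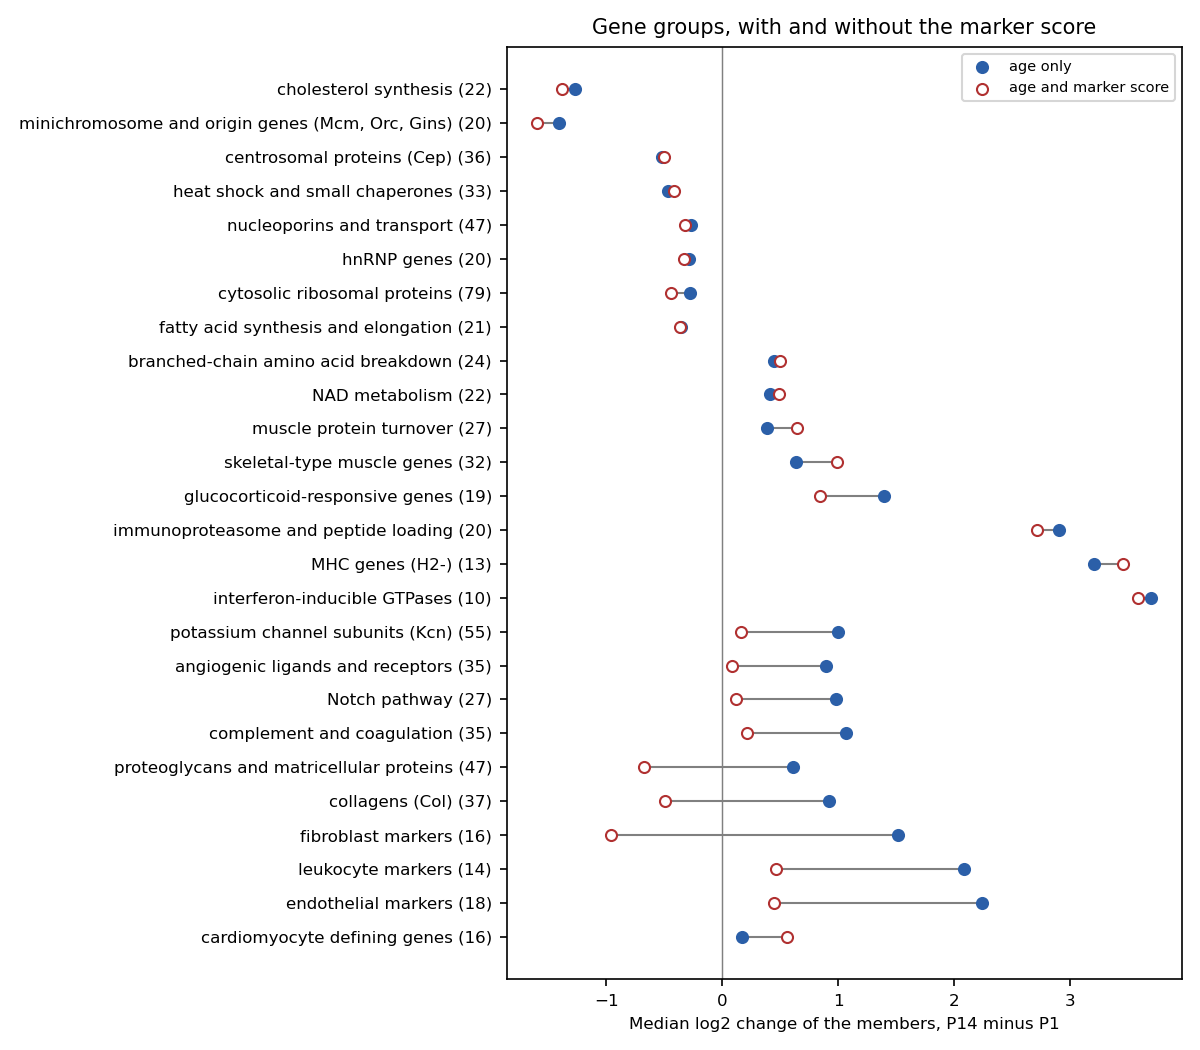
Median log2 change of the members of each gene group, P14 minus P1, from the fit with age only and from the fit with age and the marker score, with the number of genes tested in brackets. Cholesterol, nuclear pore, presentation and muscle groups keep their sign, and the collagen, proteoglycan and fibroblast marker groups change theirs. The fibroblast, leukocyte and endothelial markers drawn are themselves in the score.

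For a second set of families the rise was not kept with the score. Of 37 collagen genes 16 rose and 6 fell, with a median of 0.92 (−0.50 score-adjusted). Col1a1, Col1a2 and Col3a1 are also in the marker score, so the fit is not independent of this family. Col3a1, a fibrillar collagen, had 70.6, 44.7 and 97.5 CPM at P1 and 287, 201 and 72.0 CPM at P14, and the ages overlapped. Its log2 change of 1.40 became −1.24 with the score, and its call was lost without P1 replicate 1, P1 replicate 2, P14 replicate 1 or P14 replicate 2 (values 0.95 to 1.39). Col4a1 and Col4a2 of the basement membrane rose by 0.92 and 0.85 and stood at 0.26 and 0.76. Proteoglycan and matricellular genes rose in 21 of 47 cases and fell in 7, and their median went from 0.61 to −0.67. Some matrix genes fell in both fits, among them Gpc3, a glypican, from 70.2 ± 6.56 to 6.89 ± 4.82 CPM, Vcan, versican, from 73.0, 76.2 and 89.2 CPM to 33.1, 21.4 and 11.6 CPM, and Col4a6 (−2.31).

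In the Notch pathway 17 of 27 genes rose and 5 fell, and the median went from 0.98 to 0.12 with the score. The receptor genes Notch1 and Notch3 and the ligand gene Dll4 rose by 1.78, 2.06 and 2.01 and stood at 0.12, −0.08 and 0.08 score-adjusted. Angiogenic ligands and receptors rose in 20 of 35 cases, and their median went from 0.89 to 0.08. The endothelial receptor genes Tek and Tie1 went from 1.93 to −0.17 and from 2.32 to 0.08. Tek, Tie1 and Notch3 are themselves markers in the score, so for them the second fit is not independent of the gene. The ligand gene Vegfa, at 198, 210.0 and 187 CPM at P1 and 298, 433 and 528 CPM at P14, rose by 1.08 and by 1.80 score-adjusted. Complement and coagulation genes rose in 21 of 35 cases with a median of 1.07 (0.21 score-adjusted). The mean log2 level of the Notch, angiogenic and complement lists at P14, like that of the endothelial and fibroblast markers, was highest in replicate 1 and lowest in replicate 3.

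Potassium channel subunits held both kinds of gene. Of 55 Kcn genes 31 rose and 10 fell, and the median of 1.00 became 0.16 with the score, where 17 rose. Kcnd2 was at 579, 554 and 559.6 CPM at P1 and 1746, 2006 and 2178 CPM at P14. It forms an outward current in mouse ventricle and rose in both fits (1.81, score-adjusted 1.92). Kcnv2, a silent subunit, and Kcnip2, which partners the Kcnd channels, rose in both as well. Kcnt2, a sodium-activated channel, was at 6.05, 4.28 and 5.80 CPM and 70.9, 31.4 and 17.9 CPM, highest at P14 where the markers were highest, and its change went from 2.90 to 0.37. Kcnq5 fell from 618, 568 and 537 CPM to 140.1, 109.9 and 120.0 CPM. Kcnq1 and Kcne1, which together form the slow delayed rectifier, fell by 0.65 and 0.70 (−0.41 and −0.45 score-adjusted, the second not called), and Kcnj2 and Kcnh2 did not pass the threshold, though Kcnh2 passed without P14 replicate 1 (0.33) and with the score (0.61).

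Genes named for synapses and neurotransmission were called about as often as all genes. Of 57 synaptic adhesion and scaffold genes 18 rose and 16 fell, and with the score 12 rose and 21 fell (median 0.18, −0.28 score-adjusted). Some members changed by large amounts. Lrrc4c, an adhesion protein that binds netrin-G, fell from 109, 92.1 and 130.1 CPM to 6.52, 5.89 and 4.61 CPM, and Tenm4, a teneurin, from 126, 110.5 and 113 CPM to 23.8, 19.5 and 13.1 CPM. Ntng2, a netrin-G, went the other way, from 0.142, 0.171 and 0.0721 CPM to 3.83, 3.73 and 4.36 CPM, and Dlgap1, a scaffold protein, rose by 3.11. Among receptors for glutamate, GABA, glycine and acetylcholine 33 of 55 listed genes were tested, of which 8 rose and 7 fell (5 rising and 6 falling score-adjusted). Grik3, a kainate receptor subunit, was at 110.1, 113 and 96.9 CPM at P1 and at 1.58, 1.81 and 0.855 CPM at P14. Of 12 neuronal and Schwann cell markers listed 4 were tested, of which 2 rose and 1 fell. Their summed levels were 13.3, 12.9 and 11.1 CPM at P1 and 12.9, 11.4 and 11.5 CPM at P14.

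Transporters changed in both directions. Of 259 Slc genes 96 rose (37.1%) and 67 fell (25.9%), with 84 rising and 61 falling score-adjusted. Among amino acid carriers 15 of 37 rose and 13 fell, and their median went from 0.23 to −0.22 with the score. Slc7a2, a carrier of arginine and lysine, went from 51.4 ± 1.16 to 7.79 ± 1.01 CPM, and Slc38a1, a glutamine carrier, from 106 ± 4.16 to 51.8 ± 4.30 CPM, while its relative Slc38a3 rose. Slc6a6, the taurine carrier, rose from 56.1 ± 3.95 to 129 ± 6.86 CPM. ABC transporters rose in 21 of 38 cases and fell in 4 (17 rising and 6 falling score-adjusted), with Abcc1, an exporter of organic anions, at 22.1 ± 1.73 CPM at P1 and 309 ± 61.0 CPM at P14. Abcc9, the sulfonylurea receptor of cardiac ATP-sensitive potassium channels, fell by 0.68. Cyclic nucleotide phosphodiesterase genes rose in 13 of 20 cases and fell in 2, but with the score 8 rose and the median went from 0.65 to 0.28. Pde4d, which degrades cyclic AMP, rose from 1559 ± 40.5 to 3033 ± 387 CPM.

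Microtubule genes changed in both directions. Of 42 tubulin and microtubule protein genes 17 rose (40.5%) and 12 fell (28.6%), against 28.4% and 27.5% of all genes. Score-adjusted, 13 rose and 14 fell. The beta tubulin gene Tubb5 went from 23.6, 21.6 and 30.4 CPM to 11.3, 8.11 and 5.02 CPM and Tubb2b fell by 3.05, while the alpha tubulin gene Tuba8 rose from 4.17, 4.13 and 3.44 CPM to 53.6, 67.8 and 77.5 CPM. Vash2, an enzyme that removes the terminal tyrosine of alpha tubulin, went from 65.2, 55.9 and 58.5 CPM to 1.97, 6.25 and 6.70 CPM. Map4 and Clip1, which bind along microtubules and at their growing ends, rose by 1.01 and 1.36.

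A census that used no list put families in order. Symbols were cut to their leading letters, and 92 such roots were shared by at least 15 genes tested. The 5 lowest medians belonged to Hist (−2.01, with 30 of 34 genes falling), Rad (−0.64, 13 of 18), Cep, Kif (−0.47, 18 of 35) and Nup (−0.44, 12 of 19). The 5 highest belonged to Col, Adamts (0.84, 8 of 16 rising), Cd (0.81, 25 of 46), Sema (0.69, 11 of 19) and St (0.65, 12 of 22). Score-adjusted medians of the lowest roots were −2.77 for Hist, −0.90 for Rad, −0.51 for Cep, −0.93 for Kif and −0.49 for Nup. Those of the highest were −0.50 for Col, −0.75 for Adamts, −0.10 for Cd, 0.17 for Sema and 0.26 for St. The falling end of the order kept its sign with the marker score, and 3 of the 5 roots at the rising end changed theirs.

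**Figure D5:**
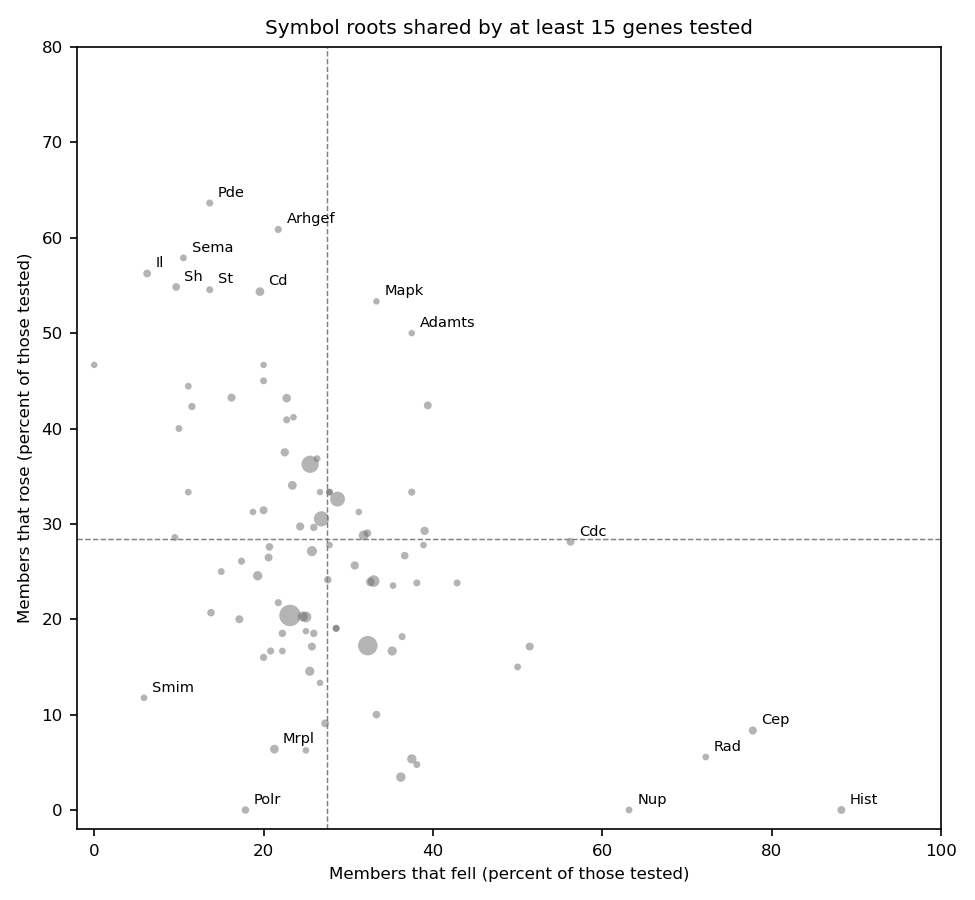
Share of members that fell (x) and rose (y) at P14 for 92 symbol roots shared by at least 15 genes tested, with point size by number of genes. Dashed lines mark the shares over all genes tested, 27.5% and 28.4%, and Hist, Cep, Rad and Nup lie far to the right.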

How the data were processed

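The authors deposited 1 table of raw read counts per gene for 9 libraries. The submitters' processing notes name, with no stated role, featureCounts 1.4.2, STAR 2.4.0g1, bcl2fastq 2.17.1.14 and the build GRCm38, and the counting settings and the separation of strands are not given in the sources used here. Counts of all 9 libraries were fitted with edgeR 4.0.16 (R 4.3.3, limma 3.58.1) by its quasi-likelihood test, with age as the term, TMM factors and filterByExpr, which removed 7 genes. The common biological coefficient of variation was 13.9%. Calls are at a Benjamini-Hochberg adjusted p under 0.05, and the fit was tested on simulated data before use. The replicates are described as biological, each a pool of hearts, so p-values measure the spread between pools.

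A second fit added the mean log2 CPM of 66 markers of other heart cells. Other alternatives were DESeq2 1.42.0, RLE size factors, no filter, at least 1 CPM in 3 libraries, the 6 libraries alone, a replicate block, GC offsets, and each library left out in turn. GC content and positions came from GENCODE M21, which held 15763 of the 15824 gene IDs, 15758 of them with GC content. Promoters came from a RefSeq table of GRCm38.p6.

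The gene lists, families and alternatives were chosen with earlier results of these data known. Genes named are from the 25 largest rises and 25 largest falls whose higher age averaged 10 CPM or more, with no overlap between ages, up to 4 members of each list in each direction, members with the highest level, members not past the threshold, and cell markers. Named for their known role after their values were seen were Pcm1, Fasn, Insig1, Kpnb1, Cep192, Bcat2, B2m, Gbp3, Tsc22d3, Dysf, Clip1, Errfi1, Per1, Notch1, Dll4, Kcnip2, Kcnt2, Kcne1, Rplp0, Hspb1, Dnajb1, Trim63, Asb2, Irgm1, Gbp7, Gbp8, Acsl1, Lpin1, Tubb5, Map4 and Adamts5. Some genes that this rule names are not reported here.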

Additional observations from a re-analysis of the deposited data

How the results depend on the processing

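Over the alternatives run, rises numbered 3781 (marker score) to 4662 (1 library left out) and falls 3630 to 4577 (both with 1 library left out), against 4493 and 4350, and each count stayed within 1.5 times its value. With each library left out in turn, rises were 3838 to 4662 and falls 3630 to 4577. DESeq2 gave 4571 rises and 4175 falls, and GC offsets 4605 and 4054. Past a log2 change of 1, the marker score gave 1683 rises and 2032 falls, against 2111 and 1483.

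With the marker score 8 of the 163 named genes changed sign and were called in either fit, to −0.69 (Adamts5), −0.24 (Bcat1), −1.54 (Col1a1), −1.38 (Col1a2), −1.24 (Col3a1), −0.19 (Errfi1), −0.085 (Notch3) and −0.17 (Tek), and a further 15 lost their call. Col1a1, Col1a2, Col3a1, Notch3 and Tek are themselves in the score, so their adjusted changes are not independent of it. The score does not overlap between the ages, so a lost call can come from information shared with age. The cause was not tested. Psmb10 and Psme1, called in neither fit, changed sign as well. Under the other alternatives no named gene changed sign that was called in either fit, and among those called in neither 3 did with GC offsets (Kcnh2, Psmb10 and Srebf1) and 2 each without P1 replicate 3, P14 replicate 1 or P14 replicate 3. Of the named genes that did not pass the threshold, Ttn, Ebp, Kcnh2 and Tm7sf2 passed with the marker score. Ttn also passed with DESeq2, GC offsets and the 6 libraries alone, Ebp with the 6 libraries alone and the replicate block, Kcnj2, Mvd and Mvk with GC offsets, and Col1a1 and Col1a2 without P14 replicate 3. Scap and Col3a1 lost their call with GC offsets. Without P1 replicate 1, P1 replicate 3 or P14 replicate 3 the rises fell to 3 among nucleoporin and transport genes and to 1 among Cep genes. Rises among mitochondrial ribosomal proteins were 5 without P1 replicate 1, P1 replicate 2 or P14 replicate 3.

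Same-numbered P1 and P14 libraries did not deviate together (r = 0.0753, 0.0152 and −0.219 over genes), so numbers were not taken as pairs. Between P14 and P56, which share the fit, r for replicates 1, 2 and 3 was 0.493, 0.0077 and 0.364. Libraries of these ages with different numbers gave −0.479 to 0.222. With the replicate block 4524 genes rose and 4300 fell, and Col3a1 and Dnajb1 lost their call. Small counts limit genes near 1 CPM.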

Other observations

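Matrix-degrading enzymes and zinc finger genes add to the families above. Of 40 metalloprotease and inhibitor genes 15 rose and 13 fell, with a median of 0.30 (−0.39 score-adjusted). Adamts6, a secreted protease, went from 833, 809.6 and 813 CPM to 217, 229.9 and 226 CPM, and Adamts19 fell by 2.41, both with little spread within an age. Adamts2, which trims procollagen, rose from 18.8, 15.1 and 16.6 CPM to 68.3, 66.7 and 62.5 CPM, and its change of 1.97 was 1.92 score-adjusted. Adamts5, an aggrecanase, was at 30.9, 13.1 and 5.46 CPM at P14, and its change of 2.29 was −0.69 score-adjusted. Zfp genes fell in 105 of 325 cases and rose in 56, with a median of −0.09, and 0.00 with offsets for GC content.

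Genes of the X chromosome differed from autosomal genes. Of 540 X-linked genes 75 rose (13.9%) and 237 fell (43.9%), with a median of −0.29, against 29.0%, 26.9% and 0.01 over 15190 autosomal genes. The X median was −0.56 score-adjusted and −0.18 with offsets for GC content, where 93 rose and 195 fell. The sex of the pooled animals is not given in the labels. GC content itself went with the direction of change. In the fifth of genes with the lowest GC (median 41.0%) 17.5% rose and 40.7% fell, and in the fifth with the highest (median 57.5%) 41.1% rose and 14.5% fell. What these patterns come from was not tested.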
